A study of Mus musculus with 9 samples.

Results

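Syndecans and glypicans are the main families of cell-surface heparan sulfate proteoglycans. The 9 genes described here, Sdc1, Sdc2, Sdc3, Sdc4, Gpc1, Gpc2, Gpc3, Gpc4 and Gpc6, were taken by symbol from a table of 22183 mouse genes, and all 9 were among the 14211 genes with enough reads to test. Polyadenylated RNA of mouse tibiae had been sequenced in 9 libraries, 3 per group. Tibiae of the Ti+I-OG group were given titanium particles and I-OG, a hydrogel injected into the tibia that is built from natural polymers and carries irisin, a hormone released by muscle. The Ti group received titanium particles alone, and the naive group was left untreated. Titanium particles stand for the debris of worn implants in this model of aseptic loosening, in which bone around an implant is lost without infection. Hydrogel-treated tibiae were taken at 5 weeks. No strain, age, sex, particle dose or time for the other groups is stated in the labels, nor how many animals or tibiae made up a library, and no group given particles with an empty hydrogel is listed. Since nothing says that the 3 libraries of a group came from separate animals, p-values measure only the spread between these libraries, which may be technical.

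Syndecans span the membrane and glypicans are tied to its outer face by a lipid anchor. Each core protein carries long sulfated sugar chains that bind growth factors, morphogens, chemokines and matrix proteins and present them to their signalling receptors, and proteases or lipases can release the outer part of the protein. In the skeleton these proteins are known for shaping fibroblast growth factor, Wnt, hedgehog and bone morphogenetic protein signalling in cartilage and bone, and syndecans also take part in cell adhesion to matrix together with integrins.

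The total estimated count per library ranged over 16256082 to 24766516, so that 3 counts, the limit that a count of 0 allows, stood for 0.114 to 0.206 CPM, the count scaled to library size. Globin transcripts took 15.1% to 15.9% of counts in Ti+I-OG libraries, 6.68% to 9.98% in Ti libraries and 2.95% to 9.47% in naive libraries. CPM values below are normalised by the trimmed mean of M values, which lessens the effect of such shares, whereas the deposited FPKM values (fragments per kilobase of transcript, scaled to sequencing depth) use a depth that includes them. The defining osteoblast markers were present in all 9 libraries, as a tibia should show. Their mean log2 level was low in naive replicate 3, at -1.62 relative to the mean of each gene over the 9 libraries, against -0.30 and -0.23 in the other naive libraries. Bglap, the osteocalcin gene, had 12.4 CPM in naive replicate 3, against 141 and 164 CPM in naive replicates 1 and 2. Chondrocyte markers were low in Ti+I-OG replicate 3, at -2.38 on the same scale.

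The start regions of 3 syndecan genes are shown because Sdc1 and Sdc4 were the members that differed from naive in both treated groups, while Sdc3 did not pass the test in either. They are the 250 bases before the RefSeq transcription start on GRCm38.p6, written 5′ to 3′ along the gene's strand. Sdc1 is the plus-strand window chr12:8771146-8771395, Sdc4 the minus-strand window chr2:164443189-164443438 and Sdc3 the plus-strand window chr4:130792287-130792536. Capitals mark the motifs searched on both strands: GGGCGG, the GC box, TATAA, the TATA box core, and GGGNNTTCC, a kappa B-like motif.
Sdc1: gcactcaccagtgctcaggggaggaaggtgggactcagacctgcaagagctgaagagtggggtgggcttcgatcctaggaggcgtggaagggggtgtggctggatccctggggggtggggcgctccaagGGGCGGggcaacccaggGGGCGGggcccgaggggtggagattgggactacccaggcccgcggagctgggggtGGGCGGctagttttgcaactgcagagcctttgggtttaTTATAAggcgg
Sdc4: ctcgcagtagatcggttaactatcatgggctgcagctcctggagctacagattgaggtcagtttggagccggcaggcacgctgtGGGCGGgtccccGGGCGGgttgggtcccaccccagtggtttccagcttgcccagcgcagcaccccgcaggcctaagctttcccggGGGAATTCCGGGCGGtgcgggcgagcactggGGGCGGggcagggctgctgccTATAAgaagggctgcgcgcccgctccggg
Sdc3: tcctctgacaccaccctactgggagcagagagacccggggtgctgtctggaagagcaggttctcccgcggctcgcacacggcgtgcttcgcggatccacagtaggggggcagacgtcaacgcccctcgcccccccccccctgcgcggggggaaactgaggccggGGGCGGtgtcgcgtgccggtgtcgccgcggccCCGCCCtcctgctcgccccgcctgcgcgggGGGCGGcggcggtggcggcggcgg
The Sdc1 window held 3 GC boxes and the TATA core, which matched on both strands in overlapping letters close to the start. The Sdc4 window held 4 GC boxes, 1 TATA core and 1 kappa B-like motif, which directly precedes a GC box without sharing a letter with it. The Sdc3 window held 3 GC boxes and neither of the other motifs. Among 32851 windows of the same length in the table, 32.7% held a GC box, 22.8% TATAA and 4.98% GGGNNTTCC. TGANTCA, the AP-1 motif, was in none of the windows of the 6 members in the table and in 6.75% of all windows. GC content was 66.0% in the Sdc1 window, 68.0% in the Sdc4 window and 76.4% in the Sdc3 window, against a median of 52.4% over all windows. These matches describe the sequences only, and the motifs were chosen after the sequences had been read.

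On the per-length FPKM scale, Gpc1 and Sdc3 were the most abundant family members, at a mean of 25.7 and 25.6 FPKM over the 9 libraries. They stood above 79.8% and 79.7% of all tested genes. Sdc1, Sdc2 and Sdc4 formed a middle group, with means of 11.03, 10.9 and 10.4 FPKM. Gpc4 followed at 2.84 FPKM, and Gpc6, Gpc3 and Gpc2 were low, at 0.843, 0.669 and 0.410 FPKM. Gpc2 rested on only 11 to 48 counts per library, Gpc3 on 17 to 43 and Gpc6 on 22 to 76, so their folds have wide intervals. The order of the middle group differed between conditions: it ran Sdc1, Sdc4, Sdc2 in Ti+I-OG, Sdc2, Sdc4, Sdc1 in Ti and Sdc1, Sdc4, Sdc2 in naive libraries, with neighbours overlapping between libraries each time. Gpc1 and Sdc3 overlapped in Ti and in naive, and in Ti+I-OG all libraries of Sdc3 (23.5 to 26.6 FPKM) lay above those of Gpc1 (20.4 to 22.9 FPKM).

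The summed syndecan level was 58.1 ± 3.72 FPKM in Ti+I-OG, 71.2 ± 8.08 FPKM in Ti and 44.6 ± 6.45 FPKM in naive libraries (SD, n = 3 each). The naive libraries, with 39.1 to 51.7 FPKM, lay below all treated libraries, which had 53.9 to 61.1 FPKM in Ti+I-OG and 63.5 to 79.6 FPKM in Ti. Summed glypicans were at 25.9 ± 1.88 FPKM in Ti+I-OG, 32.004 ± 2.91 FPKM in Ti and 33.6 ± 7.22 FPKM in naive libraries, and the naive range of 26.7 to 41.1 FPKM overlapped both treated groups. The makeup of the syndecan pool also differed. Sdc3 made up 44.0% ± 5.45 of syndecan FPKM in Ti+I-OG, 38.9% ± 3.90 in Ti and 53.7% ± 1.48 in naive libraries, with every naive library above every treated one. Sdc2 made up 15.6% ± 1.62 in Ti+I-OG, 24.2% ± 5.18 in Ti and 13.5% ± 2.61 in naive libraries, and the 3 Ti libraries, from 18.2% to 27.2%, lay above the others. Gpc1 supplied 82.9% ± 1.41 of glypican FPKM in Ti+I-OG, 83.7% ± 2.39 in Ti and 85.7% ± 3.83 in naive libraries. These sums and shares were not tested. FPKM depth includes globin transcripts, whose share was highest in Ti+I-OG. On log2(FPKM + 1), compared with normalised counts, the median log2 fold change of all genes moved down in each comparison. It moved by -0.083 in Ti vs naive, -0.084 in Ti+I-OG vs Ti and -0.18 in Ti+I-OG vs naive. The sums are therefore not on the scale of the CPM values, while shares within a library do not depend on depth.

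**Figure D1:**
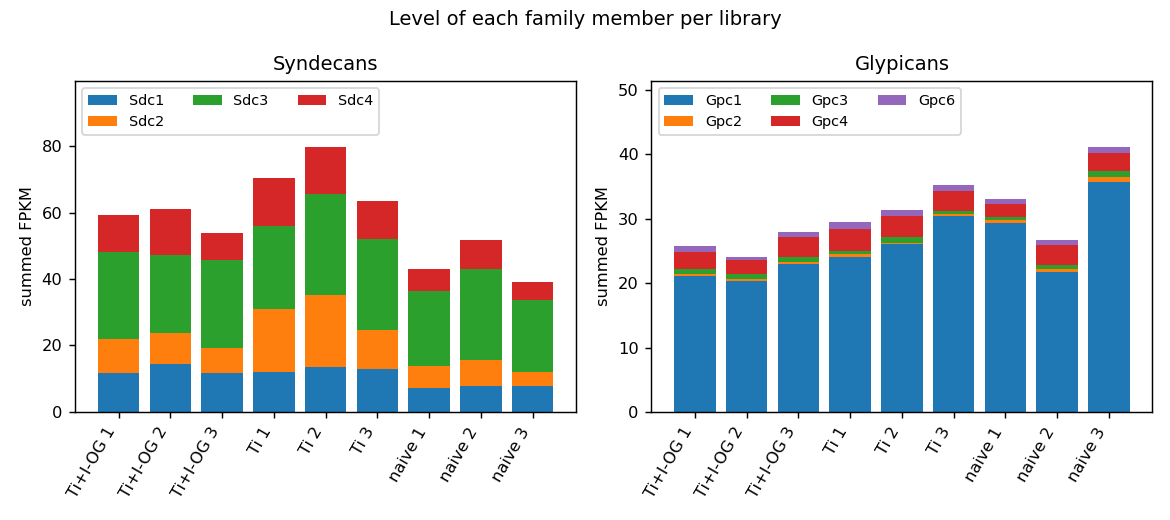
Summed FPKM (vertical axis) of the 4 syndecans (left) and the 5 glypicans (right) in each of the 9 libraries, with a colour for each gene. Syndecan bars reach 53.9 to 61.1 in Ti+I-OG and 63.5 to 79.6 in Ti, against 39.1 to 51.7 in naive, and Gpc1 fills most of every glypican bar. FPKM depth includes globin transcripts, so bar heights are not normalised as the CPM values are.

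After titanium particles, 3 of the 4 syndecans rose relative to naive tibiae and none of the 5 glypicans passed the test with edgeR, DESeq2 or limma-voom, nor had one an unadjusted p under 0.05. Sdc2 was 2.996-fold higher in Ti than in naive, Sdc4 2.04-fold and Sdc1 1.93-fold. The test was edgeR's quasi-likelihood test with Benjamini-Hochberg adjustment over all 14211 genes, and a gene was counted as called at an adjusted p under 0.05. Of all genes tested, 6.43% were called in Ti vs naive, 4.05% as higher and 2.39% as lower. In bulk tissue, fewer cells of a type and less RNA per cell cannot be told apart, and the same holds for more.

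Sdc1 (ENSMUSG00000020592), the syndecan best known from epithelia and plasma cells, had 35.9, 42.6 and 37.2 CPM in the 3 Ti libraries, against 19.0, 21.8 and 19.0 CPM in naive libraries. Every Ti library lay above every naive library, as for 14.3% of all genes tested, with little spread inside either group. The log2 fold change was 0.95 ± 0.15 (SE), with an adjusted p of 0.00753. Leaving out any of the 9 libraries kept Sdc1 called, with log2 fold changes of 0.87 to 1.02. Of 9 plasma-cell markers, 0 were called by edgeR, DESeq2 or limma-voom, and 3 had an unadjusted p under 0.05. Their median log2 fold change was 0.21, and their summed level was 1196 to 1534 CPM in Ti and 1270 to 1943 CPM in naive. Epidermal markers were near 0, with summed levels of at most 1.90 CPM in Ti and 0.701 CPM in naive, and Dsg3 was at 0 in all libraries of both groups. The part of plasma cells or epithelia in the Sdc1 difference was not tested.

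Sdc2 (ENSMUSG00000022261), the syndecan typical of mesenchymal cells and osteoblasts, had 66.7, 75.8 and 40.3 CPM in Ti, against 21.8, 26.0 and 13.3 CPM in naive. All Ti libraries were higher, as for 14.3% of genes, although replicate 3 was the lowest library in Ti and in naive, and the Ti libraries spread widely. The log2 fold change was 1.58 ± 0.27 (SE), with an adjusted p of 0.0122. The call was lost without Ti replicate 1 (adjusted p = 0.0687) and without Ti replicate 2 (adjusted p = 0.0573), with log2 fold changes of 1.503 and 1.38.

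Sdc4 (ENSMUSG00000017009), a broadly expressed syndecan of focal adhesions, had 35.03, 34.4 and 28.1 CPM in Ti, against 14.9, 20.8 and 12.2 CPM in naive. Each Ti library exceeded each naive library, as for 14.3% of genes, and replicate 3 was again the lowest in both groups. The log2 fold change was 1.03 ± 0.24 (SE), with an adjusted p of 0.0304. Of the 3 calls this one was lost most often: it did not hold without Ti replicate 1 or 2 (adjusted p = 0.116 for each), without naive replicate 1 (0.0855) or 3 (0.111), and without Ti+I-OG replicate 1 (0.0528), with log2 fold changes of 0.84 to 1.26 over all 9 omissions.

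Sdc3 (ENSMUSG00000025743), known from nerve and muscle progenitors, had 123, 149 and 135 CPM in Ti, against 106, 131 and 98.5 CPM in naive. The groups overlapped through naive replicate 2, and the log2 fold change of 0.28 ± 0.14 (SE) did not pass (adjusted p = 0.214). Its 95% interval, -0.02 to 0.58, ends below the lower bound of Sdc1, which is 0.63, and of Sdc2, which is 0.98, but above that of Sdc4, which is 0.51. The difference between these genes' folds was not tested.

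**Figure D2:**
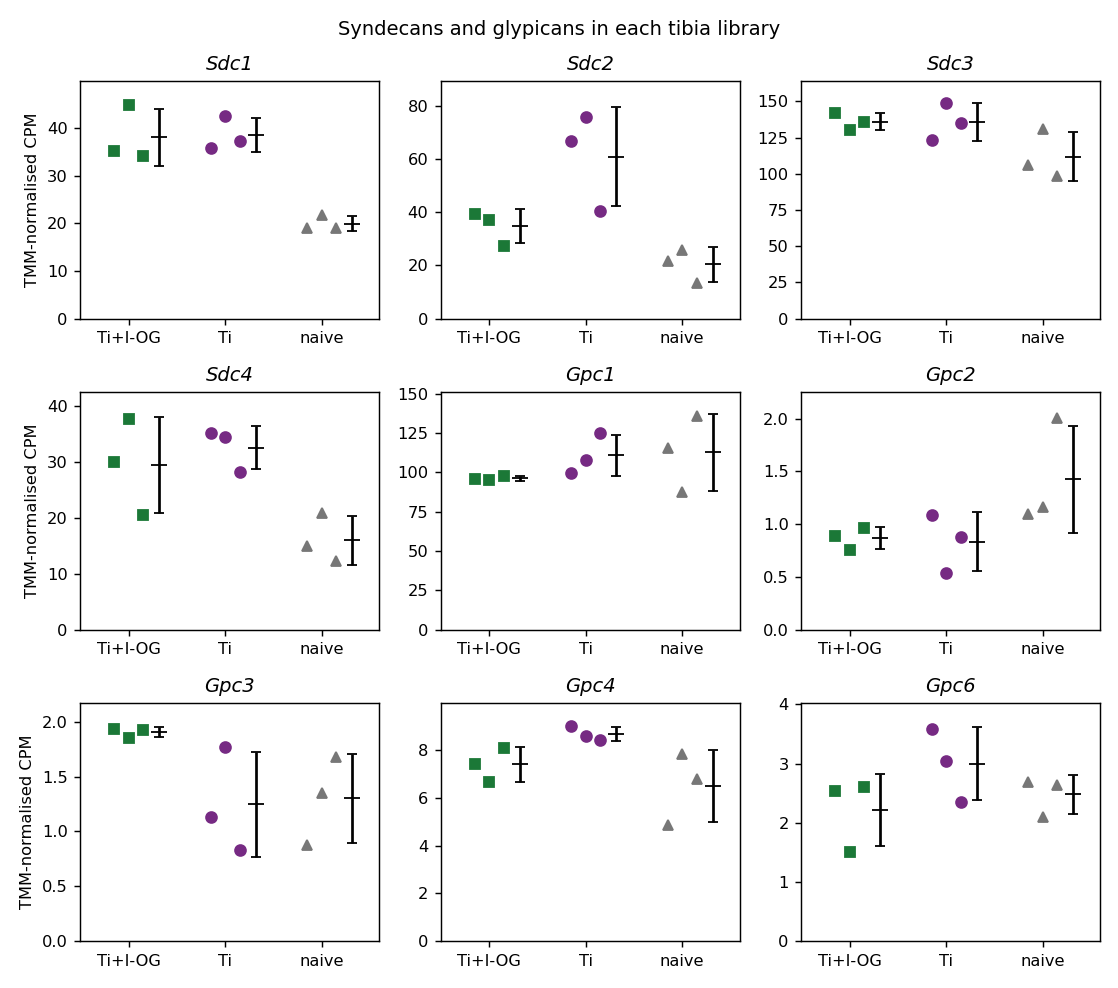
Normalised CPM (vertical axis, starting at 0) of each of the 9 genes in the 3 Ti+I-OG (squares), 3 Ti (circles) and 3 naive (triangles) libraries, with the mean and SD of each group as bars. The Ti points of Sdc1, Sdc2 and Sdc4 lie above all naive points, while the points of Sdc3 and Gpc1 overlap.

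Among the glypicans, Gpc1 (ENSMUSG00000034220), the most abundant in these tibiae, had 99.6, 108 and 125 CPM in Ti, against 115, 87.4 and 136 CPM in naive. The naive libraries spanned the whole Ti range, and the log2 fold change was -0.03 with a 95% interval of -0.38 to 0.32. Gpc4 (ENSMUSG00000031119), an X-linked glypican with roles in Wnt signalling, had 9.02, 8.58 and 8.43 CPM in Ti, against 4.86, 7.85 and 6.79 CPM in naive. All Ti libraries were higher, which held for 14.3% of all genes, but the log2 fold change of 0.42 ± 0.20 (SE) did not pass (adjusted p = 0.208). Gpc2 (ENSMUSG00000029510), studied chiefly in the developing nervous system, had 1.09, 0.536 and 0.882 CPM in Ti, against 1.10, 1.17 and 2.01 CPM in naive. All Ti libraries were lower, as for 12.9% of genes, by a narrow gap, and the log2 fold change of -0.78 ± 0.42 (SE) did not pass (adjusted p = 0.253).

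Gpc3 (ENSMUSG00000055653), the X-linked glypican that restrains hedgehog signalling and whose loss causes overgrowth, had 1.13, 1.77 and 0.833 CPM in Ti, against 0.873, 1.35 and 1.68 CPM in naive. The groups overlapped fully, and the 95% interval of the log2 fold change, -0.91 to 0.81, is wide in both directions. Gpc6 (ENSMUSG00000058571), whose loss in humans shortens the limbs, had 3.59, 3.05 and 2.35 CPM in Ti, against 2.70, 2.10 and 2.64 CPM in naive. These groups overlapped too, with a 95% interval of -0.38 to 0.93. For Gpc2, Gpc3 and Gpc6 a difference was not detectable at this depth, which does not show that there was none.

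**Figure D3:**
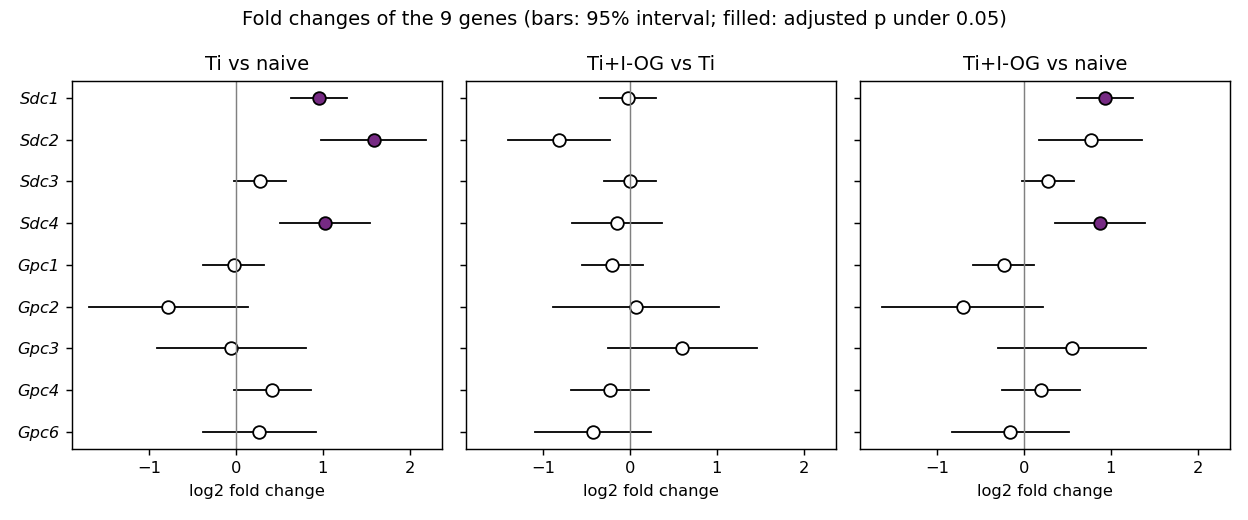
Log2 fold change (horizontal axis) of each gene for Ti against naive and for Ti+I-OG against Ti and against naive, with 95% intervals as bars and filled points for an adjusted p under 0.05. Sdc1, Sdc2 and Sdc4 are filled in Ti vs naive, none in Ti+I-OG vs Ti, and Sdc1 and Sdc4 in Ti+I-OG vs naive.

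Markers of several cell types moved in the same comparison, where 6.43% of all genes tested were called. In other lists edgeR called few or none: 0 of 8 endothelial, 0 of 8 neutrophil, 0 of 8 erythroid and 0 of 4 tested Schwann-cell markers. Of these, 3 endothelial and 1 neutrophil marker had an unadjusted p under 0.05. Of 6 marrow stroma markers 1 rose, and of 8 macrophage markers 1 rose and 1 fell. In Ti vs naive, 5 of 10 osteoblast markers rose, with a median log2 fold change of 1.16 and summed levels of 8450 to 10411 CPM in Ti and 2009 to 4663 CPM in naive. Of 12 tendon and fibrous tissue markers, 10 rose, with summed levels of 1226 to 2914 CPM in Ti and 209 to 566 CPM in naive, and replicate 3 was the lowest library of each group in this list as for Sdc2 and Sdc4. Of 6 osteocyte markers 5 rose and 1 fell, and the list summed to 230 to 295 CPM in Ti and 91.7 to 120.1 CPM in naive. Replicate 3 was the lowest library of each group in the osteocyte list too. The marker that fell was Fgf23, named after its value was seen, with 0.331, 0.0825 and 0.147 CPM in Ti, against 1.48, 0.747 and 1.22 CPM in naive. Osteoclast markers rose in 5 of 7 cases (2676 to 3127 CPM in Ti, 1271 to 2028 CPM in naive), and chondrocyte markers in 3 of 8 (757 to 826 CPM in Ti, 191 to 366 CPM in naive). In the osteoblast, osteoclast and chondrocyte lists replicate 3 was instead the highest Ti library, at 10411, 3127 and 826 CPM. Of 9 tested skeletal muscle markers 1 rose, 9 had positive fold changes and 8 an unadjusted p under 0.05, with summed levels of 1860 to 6617 CPM in Ti and 812 to 2376 CPM in naive. Of 10 B-lineage markers edgeR, DESeq2 and limma-voom called 0, while 10 had positive fold changes and 6 an unadjusted p under 0.05, with 419 to 475 CPM in Ti and 140 to 415 CPM in naive. Leaving out single libraries moved the counts called to 0 to 7 for osteoblasts, 2 to 6 for osteocytes, 6 to 12 for tendon, 3 to 5 for osteoclasts, 0 to 7 for chondrocytes, and 0 to 6 each for muscle and the B lineage. Their part in the syndecan differences was not tested. Without naive replicate 3 and Ti+I-OG replicate 3 together, Sdc1 and Sdc2 were called and Sdc4 was not (adjusted p = 0.0527).

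**Figure D4:**
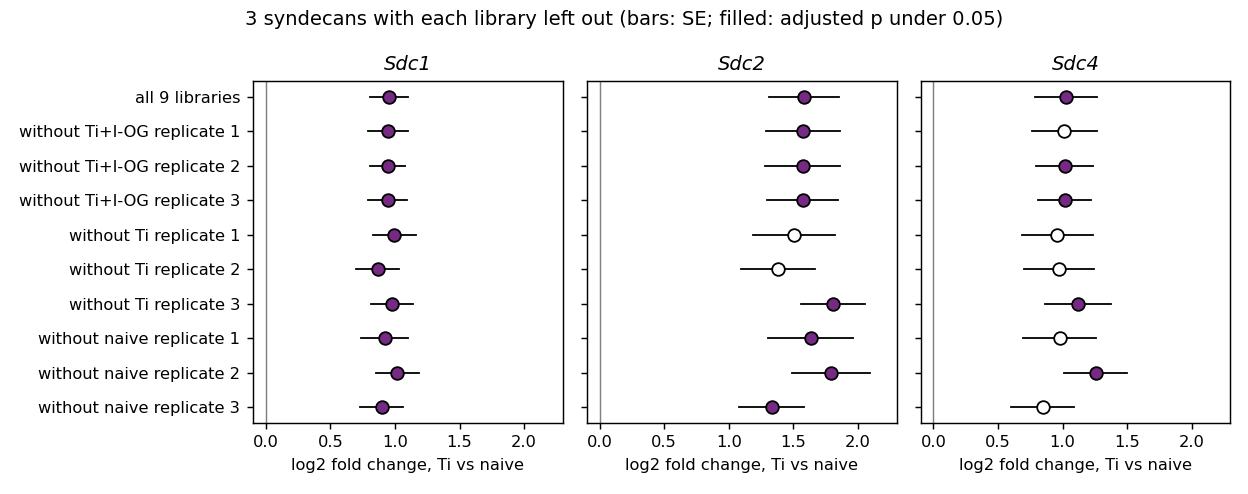
Log2 fold change in Ti vs naive (horizontal axis) of Sdc1, Sdc2 and Sdc4 with all 9 libraries (top) and with each library left out, with SE as bars and filled points for an adjusted p under 0.05. Sdc1 stays filled in all 9 omissions, Sdc2 turns open without Ti replicate 1 or 2, and Sdc4 turns open in 5 omissions.

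The hydrogel was compared with titanium alone to ask whether it changed these genes in particle-treated bone. No member was called in Ti+I-OG vs Ti with edgeR, where 0.0422% of all genes were called. DESeq2, limma-voom and the other fits also called none, and Sdc2 was the 1 member that had an unadjusted p under 0.05. Sdc2 had 39.4, 37.1 and 27.4 CPM in Ti+I-OG, against 66.7, 75.8 and 40.3 CPM in Ti. All Ti+I-OG libraries lay below all Ti libraries, which held for 6.71% of genes, with Ti replicate 3 only just above the highest Ti+I-OG library. The log2 fold change was -0.82 ± 0.27 (SE), with a 95% interval of -1.40 to -0.23, an unadjusted p of 0.0108 and an adjusted p of 0.628. Adjusted p-values ran from 0.0780 to 1.00 over 21 alternative fits. This comparison and Ti vs naive share the Ti libraries, so the folds of a gene in the 2 comparisons are not independent.

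For the other syndecans no difference between Ti+I-OG and Ti was detected. Their log2 fold changes were -0.021 for Sdc1, 0.0016 for Sdc3 and -0.15 for Sdc4. Sdc1 had 35.2, 44.9 and 34.1 CPM in Ti+I-OG, against 35.9, 42.6 and 37.2 CPM in Ti, with a 95% interval of -0.34 to 0.30 for the log2 fold change. Sdc3 had 142, 130 and 135 CPM in Ti+I-OG, against 123, 149 and 135 CPM in Ti, with an interval of -0.30 to 0.30. Sdc4 had 29.9, 37.6 and 20.5 CPM in Ti+I-OG, against 35.03, 34.4 and 28.1 CPM in Ti, with an interval of -0.66 to 0.36. The libraries of the 2 groups overlapped for each of these 3 genes. All 3 intervals exclude a log2 change as large as the 0.95 of Sdc1 between Ti and naive, and that for Sdc4 is the widest of them.

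Gpc1 had 96.0, 95.1 and 97.9 CPM in Ti+I-OG, against 99.6, 108 and 125 CPM in Ti, and Gpc4 had 7.44, 6.66 and 8.10 CPM in Ti+I-OG, against 9.02, 8.58 and 8.43 CPM in Ti. Both were lower in every Ti+I-OG library, as for 6.71% of genes, yet by small log2 fold changes of -0.20 and -0.23 that did not pass (adjusted p = 0.752 and 0.784). Gpc3 had 1.93, 1.85 and 1.93 CPM in Ti+I-OG, against 1.13, 1.77 and 0.833 CPM in Ti. Every Ti+I-OG library of Gpc3 was higher, as for 7.75% of genes, but the log2 fold change of 0.60 ± 0.39 (SE) rested on 17 to 43 counts per library and did not pass (adjusted p = 0.692). Gpc2 had 0.892, 0.756 and 0.963 CPM in Ti+I-OG, against 1.09, 0.536 and 0.882 CPM in Ti, and Gpc6 had 2.53, 1.51 and 2.61 CPM in Ti+I-OG, against 3.59, 3.05 and 2.35 CPM in Ti. The libraries of both genes overlapped between the groups.

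In the same comparison no osteoblast, chondrocyte or tendon marker was called by edgeR, DESeq2 or limma-voom, with 2, 3 and 1 at an unadjusted p under 0.05, while 10 of 10, 8 of 8 and 11 of 12 of them had negative fold changes, with medians of -0.51, -1.25 and -0.48, against -0.0031 for all genes tested. Their summed levels were 6043 to 7304 CPM in Ti+I-OG and 8450 to 10411 CPM in Ti for osteoblasts, and 217 to 472 CPM in Ti+I-OG and 757 to 826 CPM in Ti for chondrocytes. For tendon and fibrous tissue they were 971 to 1835 CPM in Ti+I-OG and 1226 to 2914 CPM in Ti. Erythroid markers went the other way: 8 of 8 had positive fold changes, with a median of 0.91, summed levels of 168880 to 183420 CPM in Ti+I-OG and 69770 to 102740 CPM in Ti, and 6 at an unadjusted p under 0.05, though edgeR, DESeq2 and limma-voom called 0. The part of these lists in the lower Sdc2 values was not tested.

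Set against naive tibiae, hydrogel-treated tibiae had higher Sdc1 and Sdc4, and no glypican was called by edgeR, DESeq2 or limma-voom or had an unadjusted p under 0.05. Of all genes tested, 8.26% were called in Ti+I-OG vs naive, 3.84% as higher and 4.43% as lower. That split was 545 genes higher and 629 lower, against 361 higher and 2041 lower with scaling to total counts only. Sdc1 had 35.2, 44.9 and 34.1 CPM in Ti+I-OG, against 19.0, 21.8 and 19.0 CPM in naive. The groups did not overlap, as for 35.5% of genes, and the log2 fold change was 0.93 ± 0.15 (SE), with an adjusted p of 0.0106. Without Ti+I-OG replicate 2 this fell to 0.78, with an adjusted p of 0.0605. Sdc4 had 29.9, 37.6 and 20.5 CPM in Ti+I-OG, against 14.9, 20.8 and 12.2 CPM in naive. Ti+I-OG replicate 3 lay just below naive replicate 2, and the log2 fold change was 0.88 ± 0.24 (SE), with an adjusted p of 0.0460. The Sdc4 call was lost in 6 of the 9 omissions of a library, all but those of Ti+I-OG replicate 3, Ti replicate 3 and naive replicate 2, with adjusted p-values up to 0.196.

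Sdc2 had 39.4, 37.1 and 27.4 CPM in Ti+I-OG, against 21.8, 26.0 and 13.3 CPM in naive. All Ti+I-OG libraries were higher, as for 18.7% of genes, and replicate 3 was the lowest in each group. The log2 fold change of 0.77 ± 0.27 (SE) did not pass (adjusted p = 0.0891). With the replicate number as a block it was 0.81 ± 0.12 (SE) and passed (adjusted p = 0.00285). That fit called 3450 genes against 1174 without the block, and its pairs were taken from these same values, not from the labels. Without the block, Sdc2 also passed in DESeq2 (adjusted p = 0.0482) and without naive replicate 2 (adjusted p = 0.0488).

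The remaining members did not pass against naive. Sdc3 had a log2 fold change of 0.28 ± 0.14 (SE) and Gpc1 one of -0.23 ± 0.16 (SE), with overlapping libraries. All Ti+I-OG libraries of Gpc2 were lower than naive (-0.70 ± 0.42, SE), as for 16.9% of genes. All those of Gpc3 were higher (0.55 ± 0.39, SE), as for 18.7% of genes, while Gpc4 and Gpc6 overlapped, at 0.19 and -0.15. Of 9 plasma-cell markers edgeR called 0, DESeq2 and limma-voom called 1, and 1 had an unadjusted p under 0.05, with summed levels of 1106 to 1791 CPM in Ti+I-OG and 1270 to 1943 CPM in naive. In this comparison 8.26% of all genes tested were called. Of the markers, 7 of 12 for tendon, 5 of 7 for osteoclasts, 5 of 8 for erythroid cells and 3 of 6 for osteocytes rose. When a library was left out, 5 to 8, 1 to 5, 0 to 7 and 0 to 5 of them were called. Of 9 muscle markers 1 rose and 9 had positive fold changes, with a median of 1.33, and 0 of 10 osteoblast markers were called by edgeR or limma-voom, 3 by DESeq2 and 5 at an unadjusted p under 0.05.

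The genes whose log2 CPM ran most like each called syndecan over the 9 libraries were found by Pearson's r. These values describe 9 libraries that share group differences, and no p is attached. For Sdc1 they were Tppp3 (r = 0.991), Serpine2, a protease inhibitor (0.990), and Nbl1, an antagonist of bone morphogenetic proteins (0.984). For Sdc2 they were Ibsp, the bone sialoprotein of mineralising osteoblasts (0.995), Arf4 (0.993) and the scavenger receptor gene Colec12 (0.988). Ibsp had 429, 452 and 321 CPM in Ti+I-OG, 637, 702 and 465 CPM in Ti and 271, 315 and 201 CPM in naive, and replicate 3 was the lowest library in all 3 groups, as for Sdc2. For Sdc4 they were Timp1, an inhibitor of metalloproteinases (0.984), Ecrg4 (0.974) and Tmem117 (0.973).

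For Sdc3 the closest genes were Evl (r = 0.974), Slamf8 (0.960) and Ncr1 (0.955), and for Gpc1 Pbxip1 (0.961), Rnf185 (0.945) and Tiam2 (0.930). Gpc2 ran with Pcyt1a (0.974) and with Knl1 (0.974) and Arhgap11a (0.965), genes of dividing cells. Gpc3 ran with Ucp3 (0.955), Cpt1b (0.943) and Pdk4 (0.931), which act in muscle fatty acid use. Gpc4 ran with Stau1 (0.925), Rsc1a1 (0.911) and Lrr1 (0.900), and Gpc6 with Asah2 (0.944), Ro60 (0.926) and Exoc6b (0.921). For the sparse glypicans a high r over so few libraries is a weak description.

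Of 14 genes that serve the building of heparan sulfate, mostly the linker and chain polymerisation, 1 rose and 0 fell in Ti vs naive. There 6.43% of all genes were called, and the list had a median log2 fold change of 0.03 against 0.0069 for all genes. The gene that rose was Ext1, a subunit of the polymerase, with 35.1 ± 5.76 CPM in Ti and 22.6 ± 1.79 CPM in naive (SD, n = 3 each), a log2 fold change of 0.64 ± 0.15 (SE) and an adjusted p of 0.0286. Ext1 rose in Ti+I-OG vs naive as well (0.71 ± 0.15, adjusted p = 0.0247), while Xylt1, which starts the linker, fell by 1.03 on the log2 scale (adjusted p = 0.0174) and Pxylp1, the linker's phosphatase, fell by 0.72 (adjusted p = 0.0330). Xylt1 had 23.8 ± 2.22 CPM in Ti+I-OG, 30.9 ± 3.95 CPM in Ti and 48.6 ± 13.4 CPM in naive libraries.

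Of 12 tested genes for chain sulfation and epimerisation, 0 were called in Ti vs naive with edgeR or limma-voom and 2 with DESeq2, and 3 had an unadjusted p under 0.05. In hydrogel-treated against naive tibiae 2 fell: Ndst1, which starts sulfation, by 0.68 ± 0.12 (SE, adjusted p = 0.0147), and Glce, the epimerase, by 0.66 ± 0.18 (SE, adjusted p = 0.0450). Ndst1 had 63.8, 65.4 and 64.8 CPM in Ti+I-OG, against 97.7, 98.3 and 115 CPM in naive, and its 3 Ti libraries lay between them at 73.5 to 85.6 CPM. Of 11 tested genes for chain editing and degradation, 2 rose in Ti vs naive: Sulf2, an extracellular sulfatase that removes sulfate groups (0.58 ± 0.14, SE, adjusted p = 0.0361), and Ids, a lysosomal sulfatase (0.50 ± 0.12, SE, adjusted p = 0.0325). Neither was called in Ti+I-OG vs naive, nor was any other gene of this list by edgeR, DESeq2 or limma-voom, with 2 at an unadjusted p under 0.05.

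Of 9 tested genes for shedding and release, Mmp2 and Mmp14 rose in Ti vs naive. Both encode metalloproteinases that act at the cell surface and on matrix. Mmp2 had 82.6, 103 and 93.4 CPM in Ti, against 39.5, 35.03 and 19.6 CPM in naive. All its Ti libraries were higher, which held for 14.3% of all genes, here by a wide gap (log2 fold change 1.57 ± 0.23, SE, adjusted p = 0.00584). Mmp14 had 70.4 ± 7.03 CPM in Ti and 42.3 ± 8.604 CPM in naive (0.73 ± 0.16, SE, adjusted p = 0.0231). Both also rose in Ti+I-OG vs naive, by 1.18 ± 0.23 for Mmp2 (SE, adjusted p = 0.0199) and 0.56 ± 0.16 for Mmp14 (SE, adjusted p = 0.0489). Adam17, a sheddase of syndecans, and Notum were not called by edgeR in any comparison. Adam17 had a log2 fold change of -0.33 ± 0.12 (SE) in Ti+I-OG vs naive (adjusted p = 0.106), and was called there with the replicate block, with total counts and in the 3 FPKM fits. Those scalings also moved the median of all genes down there, by -0.20 with total counts. The median moved by -0.18 on log2(FPKM + 1), -0.21 on log2(FPKM + 0.1) and -0.077 on unfiltered log2(FPKM + 1). Of 13 cytoplasmic partners of syndecans 1 was called in Ti vs naive, a share near the 6.43% of all genes. It was Tiam1, an activator of Rac, which fell (log2 fold change -1.084, adjusted p = 0.0402), with 30.9 ± 7.43 CPM in Ti and 65.4 ± 27.8 CPM in naive, where replicate 3 stood apart at 97.2 CPM. It fell by 1.21 in Ti+I-OG vs naive (adjusted p = 0.0305). Of the 7 other tested heparan sulfate proteoglycans edgeR and limma-voom called 0 in each comparison. DESeq2 called 2 in Ti vs naive and 1 in Ti+I-OG vs naive, and 2, 0 and 1 had an unadjusted p under 0.05 in Ti vs naive, in Ti+I-OG vs Ti and in hydrogel-treated against naive tibiae.

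Among the 8 lists of heparan sulfate genes, the binding ligands, the longest list tested, had the largest number of calls against naive in both treated groups. In Ti vs naive, where 6.43% of all genes were called, 6 of 19 tested ligands rose and 0 fell. Their median log2 fold change was 0.99 against 0.0069 for all genes. Ptn, the growth factor pleiotrophin, had 7.27, 10.02 and 4.16 CPM in Ti, against 2.43, 0.981 and 0.838 CPM in naive. Its groups had no overlap, as for 27.2% of all genes (2.32 ± 0.42, SE, adjusted p = 0.0140). Tnc, the matrix protein tenascin C, had 276, 296 and 257 CPM in Ti, against 141, 171 and 145 CPM in naive, again with no overlap (0.86 ± 0.13, SE, adjusted p = 0.00827). Wnt5b (1.47, adjusted p = 0.0171), Mdk, a relative of Ptn (1.01, adjusted p = 0.0259), and Bmp4 (1.24, adjusted p = 0.0314) rose too, as did Fgf7 (0.99, adjusted p = 0.0355), which falls outside the naming rule and was chosen after its value was seen. Of the 19, 4 rose in Ti+I-OG vs naive, Ptn, Bmp4, Wnt5b and Tnc, with a median of 0.68. The share was similar in shorter lists there, with 3 of 14 linker and polymerisation genes and 2 of 9 shedding genes called. Of all genes, 8.26% were called in that comparison.

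Among 16 tested receptors that act together with heparan sulfate, Itgav, the alpha V integrin, and Fgfr1 rose in Ti vs naive. Itgav had 124, 108 and 79.9 CPM in Ti, against 56.5, 42.5 and 52.8 CPM in naive. Its groups had no overlap, as for 27.2% of all genes (1.04 ± 0.19, SE, adjusted p = 0.0139). Fgfr1 had 50.8 ± 9.16 CPM in Ti and 29.7 ± 5.66 CPM in naive (0.78 ± 0.17, SE, adjusted p = 0.0246). Igf1r fell by 0.96 on the log2 scale in Ti+I-OG vs naive (adjusted p = 0.0460). None of the genes of these 8 lists was called in Ti+I-OG vs Ti by edgeR, DESeq2 or limma-voom, with at most 3 of a list at an unadjusted p under 0.05, and the ligand median was -0.26.

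Few of these list calls held for every set of libraries. In Ti vs naive, Mmp2 and Tnc were called in all 9 omissions of a library. Ligand calls numbered 1 without Ti replicate 1 or without Ti replicate 2, 3 without naive replicate 1 or without naive replicate 3, and up to 7 in the others. In Ti+I-OG vs naive no list gene was called without Ti+I-OG replicate 2, only Mmp2 without Ti+I-OG replicate 1, and Xylt1, Ndst1 and Mmp2 without naive replicate 3. With the replicate block this comparison had 10 ligands, 5 cytoplasmic partners and 3 receptors called, against 4, 1 and 1 without it.

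**Figure D5:**
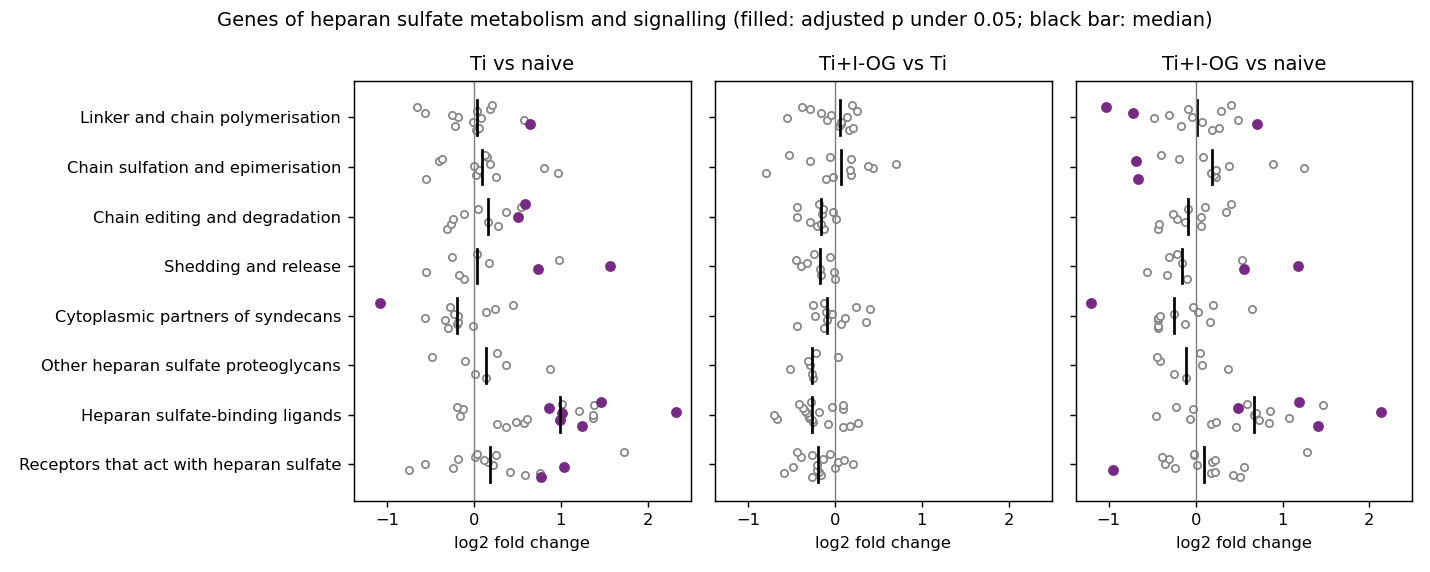
Log2 fold change (horizontal axis) of each tested gene in 8 lists of heparan sulfate metabolism and signalling (rows) in the 3 comparisons, with filled points for an adjusted p under 0.05 and a black bar at the list median. In Ti vs naive the ligand row has 6 filled points and a median of 0.99, and the panel of Ti+I-OG vs Ti has no filled point.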

How the data were processed

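Per the labels' protocols, oligo(dT)-selected tibial RNA was made into NEBNext Ultra libraries for Illumina sequencing, with no strand-marking step named, so reads of a gene and of a partner on the other strand cannot be separated. Tools in the submitters' processing notes, with no role stated, are RSEM, StringTie 1.3.1, edgeR, DESeq2 and fastp. Which aligner, genome build and annotation were used is not given in the sources used here. The authors deposited estimated counts and FPKM values for 22183 genes in 9 libraries; 8.49% of the estimated counts were not whole and all were rounded before testing. FPKM values, as deposited by the authors, were used for levels between genes, for family sums and shares and for alternative tests.

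For tests, edgeR 4.0.16 in R 4.3.3 was used: filterByExpr by group kept 14211 genes and left out 7972, normalisation used TMM, and a single quasi-likelihood fit of all 9 libraries, 3 groups with a mean each, had 6 residual degrees of freedom. Tests were two-sided, p-values were adjusted by the Benjamini-Hochberg method over all genes tested, with a threshold of 0.05, and intervals are at 95%. Alternatives were other scalings, no filter, DESeq2 1.42.0, limma 3.58.1 (voom, and trend on log2(FPKM + 1) or log2(FPKM + 0.1), for genes with at least 0.5 FPKM in 3 libraries or without that filter), only the groups compared, a replicate block and each library left out. The fits without globin genes, and without naive replicate 3 and Ti+I-OG replicate 3, were chosen after seeing the data. The procedure was tested on simulated data. The floor of 3 counts per library covers counting error only, and no unique molecular identifiers are named.

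The labels give replicates 1 to 3 in each group. Deviations of same-numbered libraries from their group means correlated at 0.197, 0.115 and 0.273 between Ti+I-OG and naive, all over 0.1. By that rule a fit with the replicate number as a block is given beside the main fit there, although the labels name no pairs. The values, calls and figures of that comparison come from the fit without the block unless the block is named. Since the rule used the same values as the tests, the blocked p-values cannot show that pairs exist. Within groups, pairs of libraries differed by 13.1 to 136 in chi-square per degree of freedom, so none was a copy.

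The members and gene lists were chosen with earlier results of these data known. Named genes were all members, up to 4 genes of each list and comparison with the smallest p, and for each member the 3 genes with the highest r, among genes with a proper symbol and a mean of at least 1 FPKM. Bglap, Dsg3, Fgf7 and Fgf23 were named outside that rule, after their values were seen. Cxcl12, Kdr and Mmp9 are each in a pathway list and a marker list. GENCODE mouse release M21, used to find overlaps, held 22128 of the identifiers. Gpc1 overlaps Ankmy1 on the other strand, Gpc2 overlaps Gm43720 and Sdc3 overlaps antisense transcripts, so their values are uncertain, as are those of Sulf2, Bmp4, Arf4, Evl, Pcyt1a, Tiam2, Cpt1b, Rsc1a1, Adam17, Fgfr1, Itgav, Tnc, Glce and Notum, which overlap other genes, and Bglap, which has a near-identical copy, Bglap2. Start regions came from a RefSeq table on GRCm38.p6, which held 6 of the 9 members.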

Additional observations from a re-analysis of the deposited data

How the results depend on the processing

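Of the 3 members called in Ti vs naive, 1 was called in the trend fit on log2(FPKM + 1) without a filter, and 1 to 3 when a library was left out. Of the 2 called in Ti+I-OG vs naive, 1 was called with total counts only, with limma-voom, in the 3 FPKM fits, with only the 2 groups compared, and without naive replicate 3 and Ti+I-OG replicate 3 together, and it was Sdc1 each time. DESeq2 called 3, and leaving out a library gave 0 to 3. No alternative called a member in Ti+I-OG vs Ti. Over 21 alternatives, Sdc1, Sdc2 and Sdc4 were called in Ti vs naive in 21, 18 and 14, and kept their direction in all. Excluding globin genes changed no member's call. The causes of these changes were not tested. Depth limits Gpc2, Gpc3 and Gpc6.

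With the replicate block, 3 members were called in Ti vs naive, 0 in Ti+I-OG vs Ti and 3 in Ti+I-OG vs naive. The block changed no other member's call than that of Sdc2 against naive in hydrogel-treated tibiae. Same-numbered libraries correlated at 0.0739, 0.203 and 0.22 between Ti+I-OG and Ti and at -0.0238, 0.333 and 0.239 between Ti and naive, so no pairing was assumed there.

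Over all genes, the 914 calls in Ti vs naive became 1859 with DESeq2, 551 on log2(FPKM + 1), 517 on log2(FPKM + 0.1), 127 on log2(FPKM + 1) without a filter, 357 with only the 2 groups, 2968 with the block, 282 without naive replicate 3 and Ti+I-OG replicate 3 and 100 to 1999 with a library left out. For the 6 calls in Ti+I-OG vs Ti these counts were 16 with DESeq2, 3 with total counts, 2 on unfiltered log2(FPKM + 1), 9 with the block, 2 without those libraries and 0 to 6 with a library left out. The 1174 calls in Ti+I-OG vs naive became 2402 with total counts, 2440 with DESeq2, 1983 on log2(FPKM + 1) (333 higher, 1650 lower), 1959 on log2(FPKM + 0.1) (335 higher, 1624 lower), 944 on unfiltered log2(FPKM + 1) (139 higher, 805 lower), 770 with only the 2 groups, 3450 with the block, 122 without those libraries and 59 to 2119 with a library left out. Total counts in place of TMM moved the median log2 fold change of all genes by -0.12 in Ti+I-OG vs Ti and by -0.20 in Ti+I-OG vs naive. On log2(FPKM + 1) it moved by -0.18 in Ti+I-OG vs naive, and on log2(FPKM + 0.1) by -0.21. Ligand calls in Ti vs naive, 6 in all, numbered 11 with the block and 3 without those libraries.

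No called fold of a member changed direction. In Ti+I-OG vs Ti, Sdc3 was at -0.0074 with RLE scaling and with DESeq2, -0.12 with total counts and on log2(FPKM + 0.1), -0.11 in both fits on log2(FPKM + 1) and -0.0047 with only the 2 groups. Gpc2 was there at -0.044 with total counts and -0.011 on unfiltered log2(FPKM + 1). Without those libraries, Gpc1 and Gpc3 were at 0.13 and 0.18 in Ti vs naive, and Sdc1, Sdc4 and Gpc2 at 0.052, 0.055 and -0.0049 in Ti+I-OG vs Ti. With a library left out, Gpc1 ranged over -0.18 to 0.11 and Gpc3 over -0.40 to 0.17 in Ti vs naive. Likewise Sdc1 ranged over -0.16 to 0.056, Sdc3 over -0.066 to 0.075, Sdc4 over -0.37 to 0.051 and Gpc2 over -0.17 to 0.30 in Ti+I-OG vs Ti, and Gpc6 over -0.30 to 0.038 in Ti+I-OG vs naive. Gpc2 was below the filter of the filtered FPKM fits and has no value there.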
